A study of Mus musculus with 4 samples.

Results

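The broad open regions described here were promoter regions in which the authors' peak caller had placed 5 or more summits, that is, 5 or more separate local maxima of open chromatin inside a single stretch. The list of open regions from mouse salivary gland organoids (mSGOs) held 69545 lines, each a summit, and lines that shared all 3 coordinates were merged, which left 32011 distinct regions. Members were selected on 2 measured values, the number of summits and the place of the region, whose midpoint had to be no more than 1 kb from a protein-coding 5′ end. Of the 32011 regions, 8033 lay at a coding 5′ end and 479 of these had 5 or more summits (5.96%, 95% Wilson interval 5.47 to 6.502). They were set against the 2019 regions at coding 5′ ends that had a single summit. The number of summits, and with it width, fold and score, came from the same peak calling, so these are given as a description without a test.

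The data came from ATAC-seq, in which the Tn5 transposase cuts DNA where chromatin is open. The labels list 4 samples of organoids grown from the submandibular salivary gland of non-irradiated C57BL/6 mice, 2 of passage 1 and 2 of passage 2, and in each passage the donor mouse was 12 weeks old for 1 sample and 3 months old for the other. These wordings can stand for about the same age. The labels do not say whether passages shared animals, while the paper's methods state that the ATAC-seq organoids came from 4 different mice. The paper states that only female mice were used, and that ATAC-seq was done on organoids of the earlier of its 2 culture times. All were cultured in Matrigel in WRY medium, which holds EGF, FGF2, R-spondin1- and Wnt3a-conditioned medium and the ROCK inhibitor Y27632. A single list was deposited for all samples, so nothing was measured per sample, the depth and the spread between replicates are unknown, and passages and ages could not be compared. As a check of the tissue label, a region lay at the 5′ end of 3 of 3 stem/progenitor I markers, 2 of 3 stem/progenitor II, 2 of 2 basal duct, 3 of 5 luminal duct, 2 of 3 pro-acinar, 1 of 2 cycling and 0 of 3 myoepithelial-like markers, against 1 of 6 immune, 0 of 6 endothelial and 0 of 6 fibroblast markers and 8003 of 19666 coding genes (40.7%).

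At an active promoter, nucleosomes are moved away from the start of transcription, and the freed stretch is flanked by positioned nucleosomes with linker DNA between them. Many promoters of broadly expressed mammalian genes lie in CpG islands, where the CG dinucleotide is kept because the DNA stays unmethylated, and GC boxes there are bound by factors of the Sp and KLF families. Salivary gland organoids grow from adult duct-derived epithelial cells and hold stem/progenitor as well as duct-like cells.

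To show what the promoters of the extremes look like, the 250 bases before the RefSeq 5′ end (GRCm38.p6) are printed for the 5 members with most summits, and for the 4 single-summit regions with the highest fold, that had an entry in the promoter table. Capitals mark the GC box GGGCGG (on the other strand CCGCCC), the ETS-family motif CCGGAAG (on the other strand CTTCCGG) and the CCAAT box (on the other strand ATTGG). All promoters are written 5′ to 3′ along the gene. The members are Syncrip at chr9:88482398-88482647 (minus strand), Ccdc9 at chr7:16286796-16287045 (minus), Sertad2 at chr11:20542916-20543165 (plus), Abi1 at chr2:23040242-23040491 (minus) and Ank at chr15:27466427-27466676 (plus).
Syncrip: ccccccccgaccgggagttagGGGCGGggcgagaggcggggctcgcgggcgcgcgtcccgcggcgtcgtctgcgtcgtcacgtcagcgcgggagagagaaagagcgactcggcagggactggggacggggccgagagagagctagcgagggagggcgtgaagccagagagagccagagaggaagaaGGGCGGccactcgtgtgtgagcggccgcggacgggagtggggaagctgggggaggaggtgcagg
Ccdc9: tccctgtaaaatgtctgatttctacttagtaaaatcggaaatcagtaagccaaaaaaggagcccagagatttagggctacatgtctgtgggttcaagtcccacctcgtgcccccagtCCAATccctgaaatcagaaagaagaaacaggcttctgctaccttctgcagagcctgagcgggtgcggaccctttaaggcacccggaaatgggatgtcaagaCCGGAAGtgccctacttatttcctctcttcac
Sertad2: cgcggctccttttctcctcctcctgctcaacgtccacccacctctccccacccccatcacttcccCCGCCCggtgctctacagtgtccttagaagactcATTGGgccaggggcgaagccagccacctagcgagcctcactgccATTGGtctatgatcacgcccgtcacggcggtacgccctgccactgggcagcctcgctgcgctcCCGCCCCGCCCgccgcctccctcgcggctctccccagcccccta
Abi1: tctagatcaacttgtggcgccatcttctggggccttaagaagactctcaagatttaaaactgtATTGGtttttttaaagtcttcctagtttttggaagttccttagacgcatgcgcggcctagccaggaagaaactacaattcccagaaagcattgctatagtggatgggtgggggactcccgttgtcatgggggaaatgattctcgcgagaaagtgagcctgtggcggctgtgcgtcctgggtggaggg
Ank: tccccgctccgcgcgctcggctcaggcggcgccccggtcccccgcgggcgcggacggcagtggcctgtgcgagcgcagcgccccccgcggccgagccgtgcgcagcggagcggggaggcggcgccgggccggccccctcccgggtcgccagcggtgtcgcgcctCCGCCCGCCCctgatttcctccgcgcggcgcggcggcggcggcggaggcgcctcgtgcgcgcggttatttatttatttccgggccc
The single-summit regions are those of Gm51425 at chr17:17004866-17005115 (plus), Eml6 at chr11:30026034-30026283 (minus), Nxt1 at chr2:148672365-148672614 (plus) and Tmem167 at chr13:90089417-90089666 (plus).
Gm51425: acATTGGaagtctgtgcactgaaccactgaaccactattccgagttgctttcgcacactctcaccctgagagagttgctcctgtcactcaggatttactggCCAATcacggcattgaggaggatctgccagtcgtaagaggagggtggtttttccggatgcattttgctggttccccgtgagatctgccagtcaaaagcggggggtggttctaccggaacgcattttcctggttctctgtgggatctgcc
Eml6: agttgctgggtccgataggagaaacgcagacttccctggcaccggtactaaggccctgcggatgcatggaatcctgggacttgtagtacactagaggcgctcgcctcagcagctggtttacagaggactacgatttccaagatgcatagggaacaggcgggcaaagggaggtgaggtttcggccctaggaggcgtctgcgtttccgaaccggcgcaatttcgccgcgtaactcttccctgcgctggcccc
Nxt1: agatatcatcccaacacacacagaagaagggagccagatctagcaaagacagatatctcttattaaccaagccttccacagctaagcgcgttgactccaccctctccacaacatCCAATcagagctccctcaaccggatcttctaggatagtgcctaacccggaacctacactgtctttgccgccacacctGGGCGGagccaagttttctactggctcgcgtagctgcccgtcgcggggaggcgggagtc
Tmem167: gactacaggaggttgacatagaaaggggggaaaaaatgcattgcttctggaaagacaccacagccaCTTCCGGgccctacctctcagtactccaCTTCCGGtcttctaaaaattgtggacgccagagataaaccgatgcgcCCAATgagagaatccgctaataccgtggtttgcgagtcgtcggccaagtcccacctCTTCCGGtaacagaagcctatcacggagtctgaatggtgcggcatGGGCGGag

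The printed members spanned a wide range of base composition. The 250 bases of Ank held 49 CG dinucleotides and were 81.2% G or C, those of Syncrip held 31 CG at 72.8% G or C, and those of Sertad2 held 20 at 68.4%. Both Ank and Syncrip had 2 GC boxes and Sertad2 had 3. Abi1, with 9 CG and 49.2% G or C, and Ccdc9, with 6 CG and 48.8%, had no GC box in these bases. Among the 4 single-summit promoters, CG counts ran from 9 in Gm51425 to 18 in Eml6, and Tmem167 alone held 3 copies of the ETS-family motif. These 9 promoters illustrate the letters that were compared over all promoters further on and are no sample to draw from.

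Members were broad regions. Their median width was 856 bp (quartiles 760.5 and 969.5, range 505 to 1656), against 283 bp (quartiles 226 and 365, range 73 to 737) for single-summit regions at coding 5′ ends. The widths overlapped: 98 of 479 members were narrower than the widest single-summit region, and 85 of 2019 single-summit regions were at least as wide as the narrowest member. Together, members made up 5.96% of the regions at coding 5′ ends and 10.9% of the bases those regions covered, 417.579 kb of sequence. The fold of a region, meaning the signal at its strongest summit over the local background, had a median of 8.89 in members (range 3.48 to 19.1) and of 6.86 in single-summit regions (range 1.71 to 22.8). The strongest of 5 or more summits was thus set beside an only summit, and the 3 highest single-summit folds, 22.8 at Rab30, 21.9 at Gm51425 and 21.9 at Pigm, all lay above the highest member. An IDR score of 1000, the top of the scale on which the caller's pipeline rates reproducibility, was given to 349 members (72.9%) and to 889 single-summit regions (44.0%). The score of a region is the highest among its summits, so here too the best of 5 or more was set beside an only value.

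**Figure D1:**
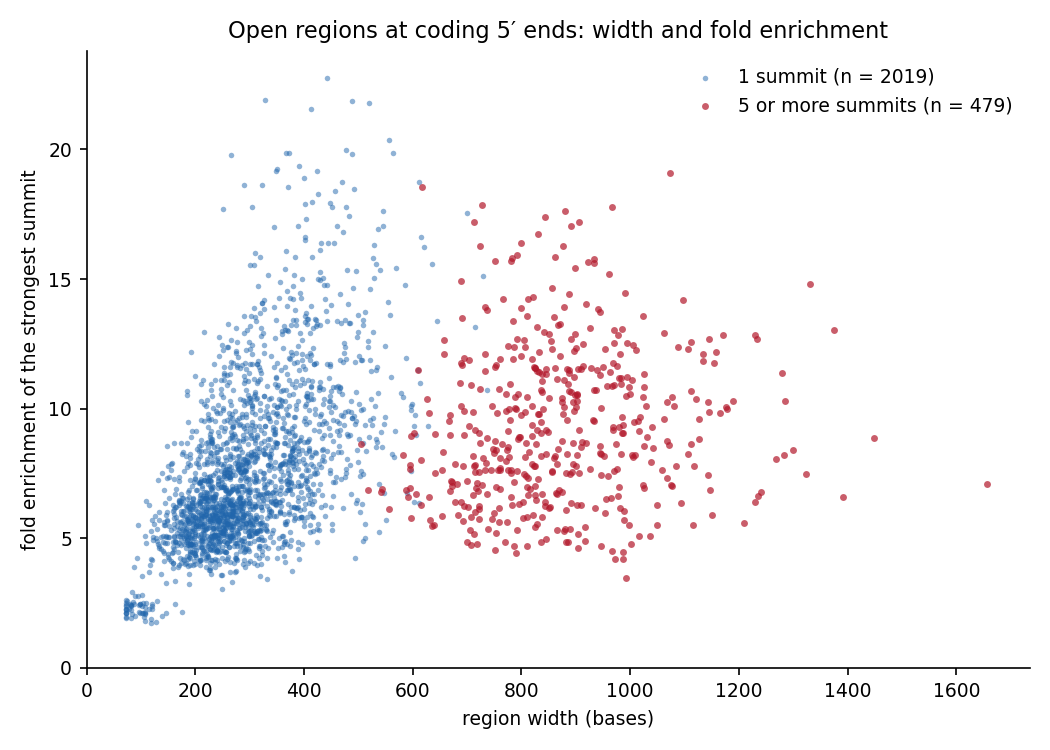
Width in bases (x axis) against fold enrichment of the strongest summit (y axis) for each of the 479 regions with 5 or more summits (red) and the 2019 regions with 1 summit (blue) at coding 5′ ends. The red points lie between 505 and 1656 bases and the blue ones between 73 and 737, while the highest folds, up to 22.8, belong to blue points.

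Most members sat at the lower limit of the rule. Exactly 5 summits were given for 357 members, 6 for 90, 7 for 24, 8 for 4, 9 for 3 and 10 for 1. Just outside the limit, 874 regions at coding 5′ ends had 4 summits, with medians of 682 bp in width and 8.92 in fold. Just inside it, the medians of the regions with exactly 5 were 820 bp and 8.83, so the classes on either side of the limit differed in width and hardly in fold. The 4-summit regions with the highest fold were those of Pja2 (fold 22.4, 672 bp), a ubiquitin ligase gene, Hibch (fold 22.3, 816 bp), an enzyme of valine breakdown, and Nudcd2 with Hmmr (fold 21.6, 834 bp). Not every summit was strong: of the 2562 summits in members, 90.7% had a q-value of 0.01 or less, and 337 members kept 5 or more summits when the others were dropped, 114 kept 4 and 28 kept 3 or fewer.

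Multi-summit regions were a larger share of the regions at coding 5′ ends than of the regions elsewhere, where 663 of 23978 had 5 or more summits (2.77%, interval 2.56 to 2.98). Counted by genes, 545 of the 8003 coding genes with a region at their 5′ end had a member there (6.81%). No gene was nearest to 2 members, and 66 members had the 5′ ends of 2 or more coding genes in reach. The member covered the 5′ end itself in 426 of 479 cases (88.9%), and the single-summit region did so in 61.2%.

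The region with most summits belonged to Setd5, a gene of a SET-domain protein linked to chromatin regulation. It ran over 1656 bp at chr6:113075965-113077620 (plus strand), from 1297 bases upstream to 358 bases downstream of the 5′ end, and was also the widest member. Its strongest summit, with a fold of 7.09, lay 7 bases upstream of the 5′ end. The other 9 summits had folds between 2.20 and 5.26, 6 of them upstream, and the next strongest reached 74.2% of the strongest.

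Syncrip, which encodes an RNA-binding protein of the hnRNP family, had 9 summits over 1375 bp at chr9:88481868-88483242 (minus strand). The strongest summits lay in the middle of the row. Going downstream, the folds were 2.21, 3.72, 3.19 and 8.51 upstream of the 5′ end, 13.0 at 58 bases downstream, and then 9.07, 4.63, 3.29 and 3.11. The 5′ end used for the printed bases differs for this gene: from there, the strongest summit lay 136 bases upstream.

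Rap1gds1, a regulator of small GTPases, also had 9 summits, with a strongest fold of 10.3 at 144 bases upstream and a weakest of 2.10. Ccdc9 had 9 summits over 1449 bp, and all of them lay downstream of the 5′ end, from 66 to 1315 bases, with the strongest, fold 8.87, at 456 bases. Sertad2, a transcriptional co-regulator gene, was the opposite case: 7 of its 8 summits lay upstream, as far as 973 bases, and the strongest, fold 12.8, at 98 bases. These 3 regions show that the row of summits could straddle the 5′ end or extend mainly to either side of it.

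Abi1, a subunit of the WAVE complex that drives actin branching, had 8 summits, of which 1 at 62 bases upstream reached a fold of 9.07 and the other 7 stayed at or below 4.84. Rev3l, the catalytic subunit of DNA polymerase zeta, had 8 summits over 1391 bp and folds from 2.10 to 6.58. Ank, a gene of pyrophosphate transport, had 8 summits of nearly even height, from 2.56 to 4.20, and a lower IDR score of 558. Its base composition, printed above, was the most CG-rich of the 5 promoters shown, and its fold was the lowest of the 10 regions with most summits.

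Ebag9 had the highest fold of all members. Its 7 summits had folds of 2.47 and 3.53 at the upstream edge, 14.2 and 19.1 at 237 and 160 bases upstream, 10.3 at 12 bases downstream, and 4.58 and 2.03 further on. Eny2, a subunit of the SAGA deubiquitinating module and of the TREX-2 mRNA export complex, shared its region with Nudcd1, and 2 of its 7 summits were nearly equal, with folds of 14.7 and 14.8. In both regions the strong summits formed a core of neighbouring maxima with weaker ones on each side.

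**Figure D2:**
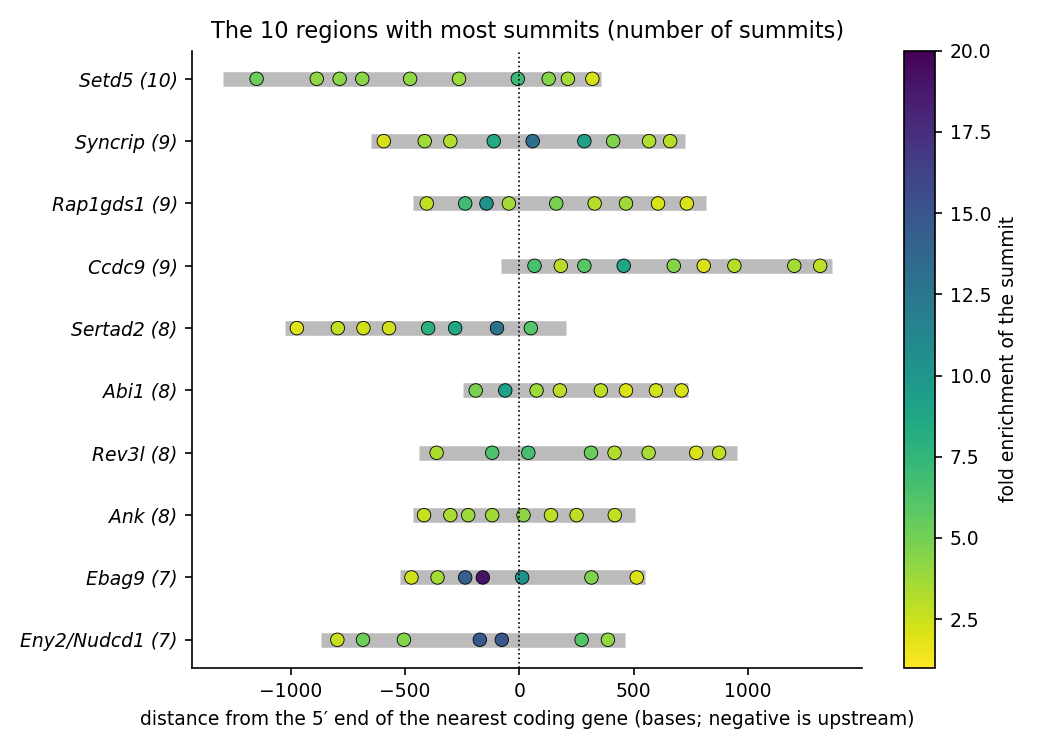
Each row is 1 of the 10 members with most summits, placed by distance in bases from the 5′ end of its nearest coding gene (x axis, negative is upstream). Grey bars are the regions, circles are summits, and colour is the fold of each summit, so the row of Setd5 shows 10 summits with folds from 2.20 to 7.09 and that of Ebag9 a dark core reaching 19.1.

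After Ebag9, the highest folds among members were those of Vcpip1 (18.5), a deubiquitinase gene, Ncapg (17.8), a condensin subunit gene, Dmxl1 (17.8) and Dtwd2 (17.6). In the Vcpip1 region, 3 of the 5 summits had folds of 13.3, 18.5 and 13.6 within the 204 bases upstream of the 5′ end, and the remaining 2, downstream, had 2.16 and 2.27. At the other end of the range, Pxdc1 had a fold of 3.48, Tgif1, a repressor in TGF-β signalling, 4.19, Ank 4.20, Plpp2 4.42 and Dusp1, a phosphatase that switches off MAP kinases, 4.46. The 5 Dusp1 summits differed little, with folds from 2.65 to 4.46. The strongest summit therefore varied over 3.48 to 19.1 among regions that all met the same rule.

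The widest members after Setd5 were Ccdc9 (1449 bp), Rev3l (1391 bp), Syncrip (1375 bp) and Eny2 (1330 bp), all of which are also among the 10 with most summits. The narrowest were Hif1an (505 bp), encoding the hydroxylase that restrains HIF-1α, Fam180a (517 bp) and Abhd5 (541 bp), a co-activator of lipolysis, each with 5 summits. In the Hif1an region the summits lay at 164, 67 and 1 bases upstream and at 153 and 243 bases downstream, with folds of 3.59, 8.64, 6.84, 2.51 and 4.02.

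Neighbouring summits in members lay a median of 140 bases apart (quartiles 109 and 194, range 39 to 412, 2083 gaps), close to the 148 bases in regions of 2 to 4 summits. Summits within a member were unequal. Ranked by fold in each region, the medians fell from 8.89 for the strongest to 6.96, 5.29, 3.81 and 2.81 for the next 4 ranks. The order of these medians follows from the ranking itself. In 273 members the next summit reached at least 80% of the strongest, so these had no single dominant maximum. The strongest was the outermost summit on either side in 93 members (19.4%) and lay within 150 bases of the 5′ end in 253 (52.8%), against 60.3% of the summits of single-summit regions.

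Summits lay on both sides of the 5′ end in 379 members, all upstream in 41 and all downstream in 59. In all, 1217 summits were upstream and 1345 downstream. In bins of 100 bases, 312 member summits fell within the 100 bases just upstream and 296 within the 100 just downstream, 182 in the next bin from 100 to 199 bases downstream, and 248 from 200 to 299. The same dip stood in the other classes, with 2753, 1054 and 1499 summits in the successive downstream bins for regions of 2 to 4 summits, and 403, 72 and 135 for single-summit regions. The dip was seen in all 3 classes. Heights changed across it: the median fold of member summits was 7.17 in the bin just upstream of the 5′ end and 3.79 at 200 to 299 bases downstream.

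**Figure D3:**
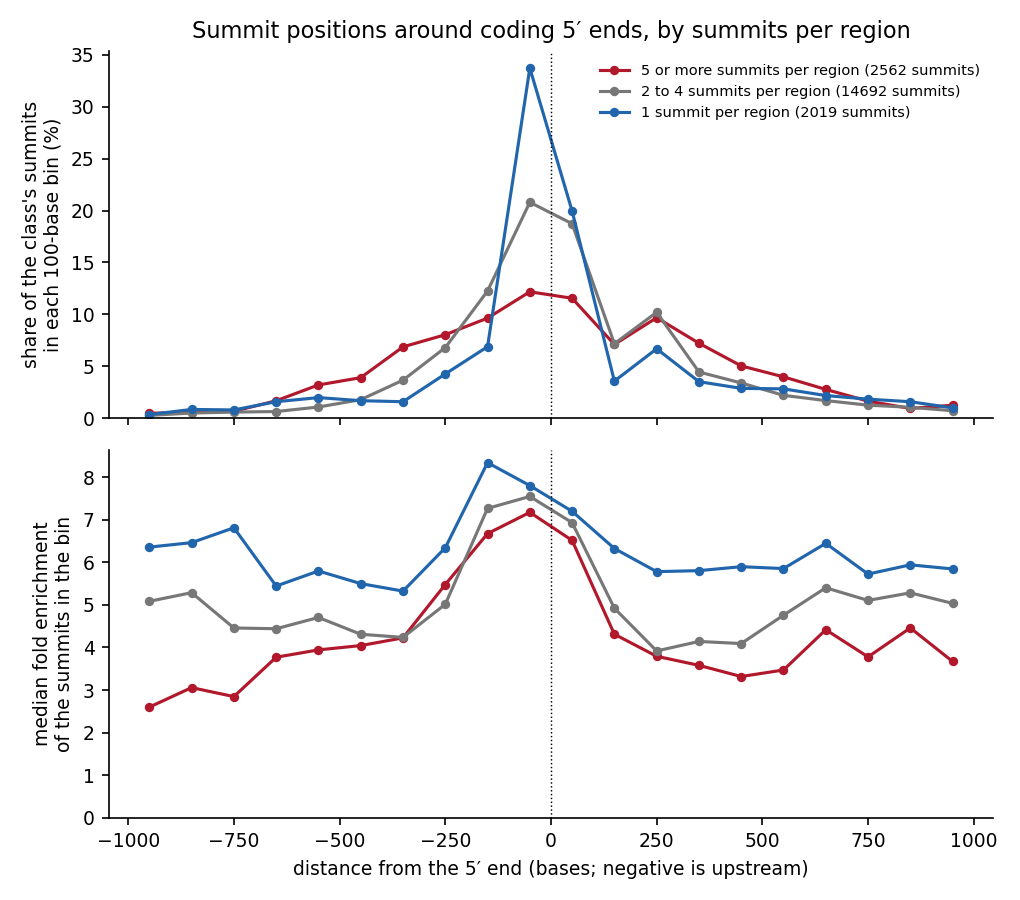
Upper panel, share of each class's summits (y axis, percent) in bins of 100 bases by distance from the coding 5′ end (x axis, bases, negative is upstream), for regions of 5 or more (red), 2 to 4 (grey) and 1 summit (blue). Lower panel, median fold enrichment of the summits in each bin; all 3 classes have fewer summits at 100 to 199 bases than at 200 to 299 bases downstream.

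Promoter sequence, the number of transcript starts and the presence of a coding 5′ end on the other strand did not enter the choice of members. These were tested. RefSeq promoters, 250 bases before and 50 after the 5′ end, were found for 378 of 479 members and 1593 of 2019 single-summit regions. This window is set by the annotated 5′ end and can lie outside the open region. The 5′ end of the nearest gene was covered by 88.9% of members and 61.2% of single-summit regions, and sequence tests were not limited to these. Shares were compared with a two-sided Fisher's exact test, adjusted by Benjamini-Hochberg over 14 properties, with Newcombe intervals for the difference. The test treats regions as separate observations and compares regions of this list, not replicate organoids. A promoter was counted once for each region at its gene, so it can recur among single-summit regions or stand in both classes. Another region, with any number of summits, lay at the same gene's 5′ end for 639 of 2019 single-summit regions and 18 of 479 members.

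Members lay more often at CpG-rich promoters, defined by CG at 0.6 or more of the number expected from base composition and at least 50% G or C. This held for 324 of 378 member promoters (85.7%) and 1108 of 1593 single-summit promoters (69.6%), a difference of 16.2 percentage points (interval 11.7 to 20.1, Fisher's exact test, adjusted p = 2.79e-10). Of all 32851 promoters in the table, open or not and without a filter for coding genes, 33.5% were CpG-rich. The shares given below for all promoters come from the same unfiltered set. The share rose with the number of summits, from 69.6% at 1 to 75.5%, 79.6% and 82.8% at 2, 3 and 4, and was 86.5% at 5 and 83.1% at 6 or more. The last 2 classes did not differ beyond their intervals (82.1 to 90.0 and 74.0 to 89.5). Against the 68 promoters of wide single-summit regions, those at least as wide as the narrowest member (505 bp), the share was 75.0%. The difference of 10.7 points did not pass (Fisher's exact test, adjusted p = 0.0878). These regions were at most 737 bp wide, below the members' median of 856 bp, so widths were not matched. Summit number and width rise together in this list, and their parts in the difference cannot be told apart.

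The GC box GGGCGG, which contains a CG, was the motif with the largest difference among the 10 searched on both strands of the 300 bases. It was found in 308 member promoters (81.5%) and 1007 single-summit promoters (63.2%), 18.3 points apart (interval 13.4 to 22.6, Fisher's exact test, adjusted p = 4.12e-11), and in 35.7% of all promoters. Within CpG-rich promoters alone, the shares were 85.8% and 73.7% (Fisher's exact test, adjusted p = 3.54e-05). That cutoff does not match base composition. Over all promoters tested, the median share of G or C was 65.8% in members and 59% in single-summit regions. The difference also passed against the wide single-summit regions, at 15.3 points (Fisher's exact test, adjusted p = 0.0306). The promoters of Syncrip, Sertad2 and Ank printed above hold the GC box, and those of Ccdc9 and Abi1 do not within the stretch shown.

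The ETS-family motif CCGGAAG, which also contains a CG, went the other way. It was found in 53 member promoters (14.0%) and 362 single-summit promoters (22.7%), a difference of -8.70 points (interval -12.5 to -4.36, Fisher's exact test, adjusted p = 0.000574), with 8.86% in all promoters. The shares over 1, 2, 3 and 4 summits were 22.7%, 20.0%, 21.9% and 20.6%, and those over 5 and over 6 or more were 14.5% and 12.4%. Against regions of 2 to 4 summits the difference was -6.71 points (Fisher's exact test, adjusted p = 0.00766), and within CpG-rich promoters it was -10.8 (adjusted p = 0.000195). Against the wide single-summit regions it was -15.4 points (Fisher's exact test, adjusted p = 0.0220). Tmem167, printed above with 3 copies, is a single-summit promoter of this kind, while Ccdc9 is a member with 1 copy.

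The CCAAT box was in 38.4% of member promoters and 45.8% of single-summit promoters (-7.40 points, interval -12.8 to -1.85, Fisher's exact test, adjusted p = 0.0268), with 37.4% in all promoters. Against the wide single-summit regions it was -19.0 points (Fisher's exact test, adjusted p = 0.0220). It did not pass against regions of 2 to 4 summits (Fisher's exact test, adjusted p = 0.229). Another 3 motifs, each rare, passed with adjusted p between 0.0452 and 0.0467. The NRF1 motif was in 15 member promoters (3.97%, against 1.88%), the YY1 motif in 4 (1.06%, against 3.20%) and the AP-1 motif TGANTCA in 9 (2.38%, against 4.96%), where N is any base. In all promoters these were at 0.971%, 0.852% and 7.81%. Each of these 3 calls was lost in 4 of the 6 alternatives run for motifs, and that of the CCAAT box in 2. The 4 remaining motifs did not pass: the TATA box TATAAA was in 5.03% against 7.85% (interval of the difference -5.10 to 0.134), the E-box CACGTG in 11.6% against 8.35% (0.0852 to 7.13), the CRE motif TGACGTCA in 3.70% against 3.20% (-1.28 to 3.03) and the STAT motif TTCCNGGAA in 0.265% against 1.57% (-2.07 to 0.0139). In the 6 alternatives, the E-box passed in 3, with 11.6 points against the wide single-summit regions (Fisher's exact test, adjusted p = 0.00941). The TATA box and the STAT motif passed in 1 each. A match gives letters in a window and says nothing of whether a factor is bound.

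**Figure D4:**
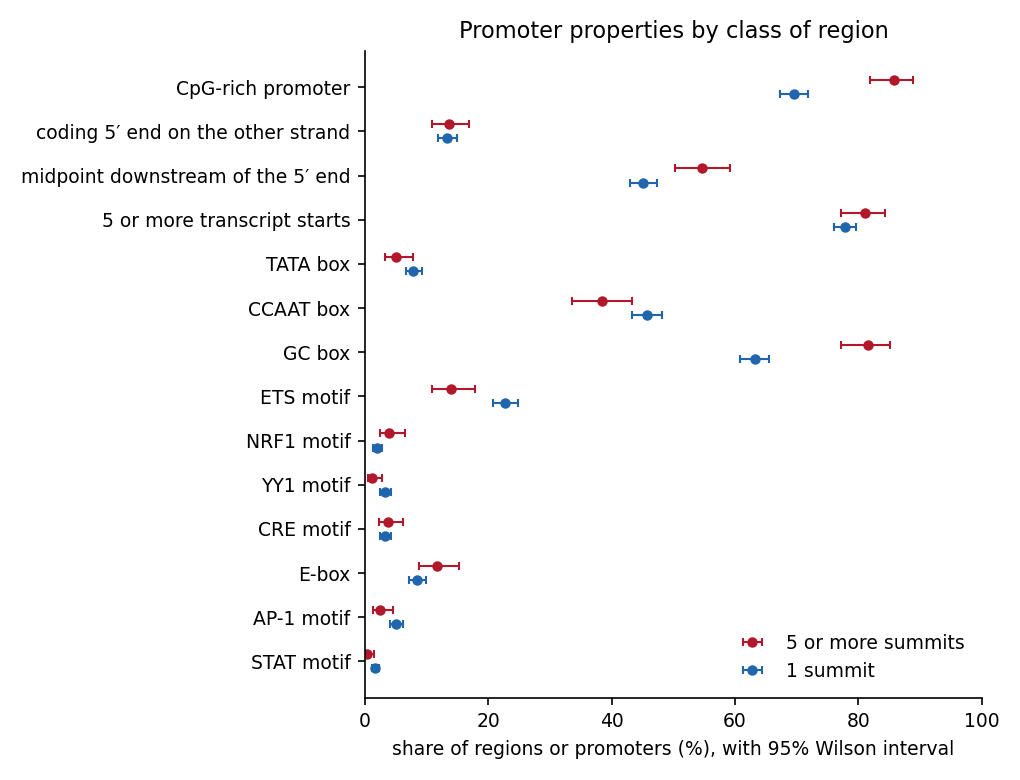
Share in percent (x axis) of the regions or promoters with each of the 14 properties, for regions of 5 or more summits (red) and of 1 summit (blue), with 95% Wilson intervals as bars. The CpG-rich promoter (85.7% and 69.6%) and the GC box (81.5% and 63.2%) stand highest in red above blue, and the ETS motif (14.0% and 22.7%) lies lower in red.

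**Figure D5:**
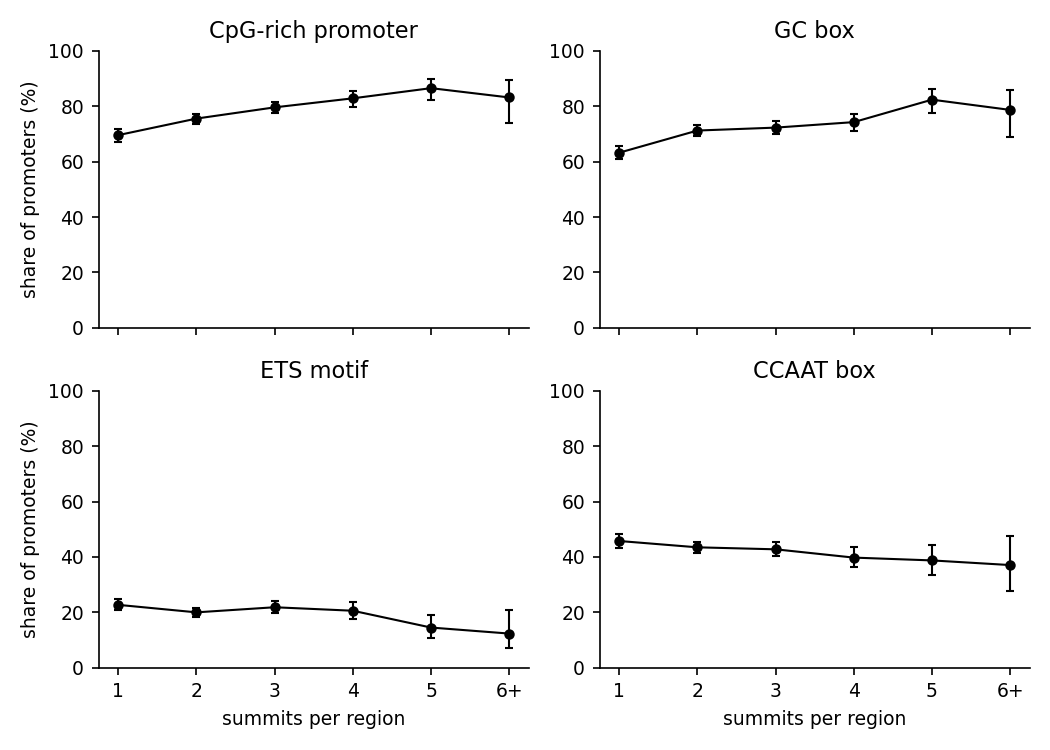
Share of promoters in percent (y axis, 95% Wilson intervals) against the number of summits per region (x axis, the last point is 6 or more) for the CpG-rich promoter, the GC box, the ETS motif and the CCAAT box. The CpG-rich share rises from 69.6% to 86.5% at 5 summits, and the ETS share stays between 20.0% and 22.7% up to 4 summits and is 14.5% at 5.

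The midpoint lay downstream of the 5′ end in 262 of 479 members (54.7%), in 51.7% of regions of 2 to 4 summits and in 911 of 2019 single-summit regions (45.1%). The midpoint entered the rule and comes from the peak calling, so its side is given as a description, although it was counted among the 14 properties in the adjustment. A coding gene on the other strand with its 5′ end within 1 kb, on either side, was found at 13.6% of members and 13.3% of single-summit regions. Genes that run apart were not separated from genes that overlap. The interval of the difference ran from -2.94 to 3.89 points (Fisher's exact test, adjusted p = 0.881). Genes with 5 or more annotated transcript starts made up 81.0% and 77.9% (interval of the difference -1.003 to 6.90, Fisher's exact test, adjusted p = 0.161).

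Members stood more alone than single-summit regions, which is given as a description because both counts come from the same peak calling. Another region lay within 2 kb of 39 members (8.14%) and 828 single-summit regions (41.0%). The share was 23.0% for regions of 2 to 4 summits, and 13.7% for single-summit regions that were the only region at their gene. Another region at the 5′ end of the same gene was found for 18 members (3.76%) and 639 single-summit regions (31.6%), so nearly all members were the only region at their promoter. Between 2 and 10 kb away the shares were closer, 23.4% and 29.0%. Of the 208 regions at coding 5′ ends on chromosome X, 2 were members, those of Usp27x and Yipf6 (0.962%, interval 0.264 to 3.44), against 477 of 7825 on the autosomes (6.10%, interval 5.59 to 6.65). Among the autosomes the share ran from 3.98% on chromosome 13 to 9.84% on chromosome 14.

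Gene lists were read against the 6.81% of coding genes with a region that had a member, and against their median of 2 summits and 483 bp. Among the Krüppel-like factors, zinc-finger regulators of epithelial growth and differentiation, 3 of 12 genes with a region had a member, and the list's median was 3 summits and 685 bp. Klf13 had 6 summits (898 bp), of which 5 lay upstream, with a strongest fold of 12.9 at 211 bases upstream. Klf4 had 5 summits with folds of 5.42, 4.03, 3.90, 2.48 and 2.45, and Klf3 had 5 with a strongest fold of 7.64. The count is small and the list was chosen with these data known.

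Of the AP-1 genes, which encode Fos and Jun family factors that respond to growth signals, 1 of 9 with a region had a member. This was Fosl2, whose 6 summits all lay upstream, between 575 and 1345 bases, with folds up to 12.5. Jun had 4 summits over 988 bp and Junb had 2 over 293 bp, so genes of this family ranged from narrow to broad regions.

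In the Notch pathway, Hey1, a Notch target and transcriptional repressor, had 5 summits, all upstream, with folds from 2.56 to 5.18. Genes of the EGF and MAP kinase feedback list had a member in 3 of 18 cases: Egfr, the receptor of the EGF in the medium, had 5 summits and a strongest fold of 5.37 at 4 bases upstream, Egr1, an early response gene, had 5 and 5.70, and Dusp1 had 5 and 4.46. In the TGF-β and BMP list it was 3 of 15, with Smad2 at 6 summits and a fold of 8.21, Smad4 at 5 and 6.30, and Tgif1 at 5 and 4.19. In the NF-κB list, Relb (fold 10.0) and Rel (fold 8.66) had a member, 2 of 14 genes. All these genes lay below the median fold of members, 8.89, except Relb.

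The SOX list (5 genes with a region), the TEAD and YAP list (15), the forkhead list (11), the Myc network (8), and the p53 and senescence list (14) had 0 members. Sox9, a stem/progenitor marker of the salivary gland, had 2 summits over 423 bp with a fold of 7.82, and Yap1 had 3 over 711 bp. With 6.81% of all such genes having a member, 0 in lists of this size is no result about them. Cbfb, the partner of RUNX factors and the only gene of its list with a region, had 5 summits and a fold of 7.79. Etv5, an ETS factor downstream of FGF signals, had 5 and 12.0, and was 1 of 9 in the epithelial ETS list.

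Of the cell markers, the stem/progenitor I gene Cd24a had a member with 5 summits over 654 bp, a strongest fold of 5.87 at 27 bases downstream and the other 4 at or below 3.25. Cd164 of the same list had 4 summits over 603 bp. Alcam, a pro-acinar marker and adhesion molecule, had 5 summits over 800 bp with folds of 13.9, 9.47, 8.43, 2.78 and 1.88. No stem/progenitor II, basal duct or luminal duct marker had a member. Cldn4 had 3 summits over 727 bp and Itgb1 had 2 over 584 bp. Cd44, Krt14 and Krt5 also had 2 summits each, and Krt8 and Krt17 had 1. The only region at an immune, endothelial or fibroblast marker was no member.

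Lists of general cell functions were spread around the background of 6.81%. Heat shock proteins and chaperones had a member at 6 of 49 genes (12.2%), among them Hspa2 (5 summits, fold 13.6), Hspa8 (5, fold 12.4), the constitutive cytosolic Hsp70, and Hspd1 with Hspe1, the mitochondrial chaperonin pair that shared 1 region of 937 bp. The ubiquitin system had 11 of 94 (11.7%), with Usp1 (fold 13.0), Fbxw7 (10.7), Usp25 (8.10) and Usp3 (7.40) at 6 summits each. The list named actin and tubulin, which also takes in related symbols, had 3 of 15. These were Actn1, an actin crosslinker, with 7 summits over 947 bp, Actr3 and Actn4. None of the 3 encodes an actin or a tubulin. These shares describe the lists and were not tested.

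Shares below the background stood in the ribosomal protein, respiration, histone, translation initiation, chromatin and Zfp lists. The counts were small and these shares, too, were not tested. Cytosolic ribosomal protein genes had a member at 3 of 67 (4.48%), Rpl34 (fold 16.3), Rps19 (10.0) and Rps15a (7.64), and their median width was 412 bp. Oxidative phosphorylation had 1 of 54 (1.85%), Ndufb2, and histone genes 1 of 54, H2az2, whose region reached a fold of 14.2. Translation initiation factors had 2 of 45, Eif5a and Eif3d, chromatin regulators 2 of 46, Kmt2e and Smarca4, and genes named Zfp 10 of 225 (4.44%), led by Zfp444, Zfp143 and Zfp142 with 6 summits each. Near the background, splicing factors had 3 of 44 (6.82%), of which Hnrnph3, in a region of 7 summits shared with Pbld2, had most, and proteasome subunits 2 of 27 (7.41%), Psma2 and Psmd13. Cyclins and their kinases had 1 of 21, Cdk13, with 6 summits. The keratin and claudin lists, with 5 and 6 genes that had a region, had 0.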

How the data were processed

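ATAC-seq libraries of 4 mSGO samples were aligned and peaks called by the authors with the ENCODE ATAC-seq pipeline (version not given in the sources used here) from 75 bp paired-end reads, and the paper describes a consensus of all organoid samples. The number of peaks it gives for that consensus matches neither the lines nor the distinct regions of the list used here. How the consensus and the list relate is not stated. The deposited list holds, per line, a region, an IDR score, the ratio (fold) of a summit's signal to its local background, p- and q-values as −log10, and the summit's offset from the region start, all given by the authors' caller with no sample separated; the p-values were not used. The submitters' processing notes name GRCm39 and HOMER. The coordinates were nevertheless read as GRCm38: regions ended past the GRCm39 chromosome end on 8 of 21 chromosomes, and a region midpoint lay within 1 kb of 40.7% of coding 5′ ends in the GRCm38.p6 RefSeq gene table, against 5.19% in the GRCm39 annotation.

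Strand came by symbol from GENCODE mouse release 39, which covered 19666 of 21887 coding genes (89.9%), and the others were left out. Each region took the highest fold, the highest IDR score and the highest −log10 q-value among its summits, each found separately. Promoter sequences came from a RefSeq table of GRCm38.p6, which holds fewer genes than the gene table and whose 5′ ends can differ from it. Intervals are 95% Wilson or Newcombe and cover counting error only. Depth per sample is unknown. Functions were tested on simulated data. Named regions are the 10 members with most summits, the 5 with the highest fold, the 5 widest and 3 narrowest, the 3 highest regions of 4 and of 1 summit, and list genes. The 5 lowest folds, chromosome X and the named genes without a member were picked with their values in view. The result of 1 listed gene is not reported here. The members and gene lists were chosen with earlier results of these data known. Python 3.11.15, scipy 1.17.1, numpy 2.4.6, matplotlib 3.10.9 and pandas 2.3.3 were used.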

Additional observations from a re-analysis of the deposited data

How the results depend on the processing

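The count of 479 regions became 1353 with 4 or more summits and 122 with 6 or more, and the share of 5.96% became 16.8% and 1.52%. The share was 6.92% among regions covering the 5′ end, 7.60% at an IDR score of 1000 and 4.22% with summits of q up to 0.01 only. With the 5′ ends of the promoter table, 455 members were found, of which 388 were among the 479. The CpG-rich difference of 16.2 points passed in 8 of 9 alternatives and was 10.7 against single-summit regions at least as wide as the narrowest member. The difference in downstream midpoints, 9.58 points and a description only, was 2.99 against regions of 2 to 4 summits, 7.34 with 6 or more summits and 11.2 against wide single-summit regions. The difference in transcript starts, 3.14 points, passed with 4 or more summits (4.62) and against single-summit regions alone at their gene (4.92). The number of motifs that passed, 6, fell to 3 against regions of 2 to 4 summits. GGGCGG and CCGGAAG passed in all 6 alternatives run for motifs, and the YY1-motif difference turned to 1.06 points, with 0 wide single-summit promoters holding it. The causes were not tested. The comparisons with wide and with lone single-summit regions, with summits of q up to 0.01, within CpG-rich promoters and with the promoter table's 5′ ends were chosen after seeing the data. No paired analysis was possible because the list has no values per sample, and for the same reason no sample could be left out. Depth, replicate spread and differences between passages or ages are unknown, and whether deeper libraries would split more regions into summits was not tested.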

Other observations

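A further 663 multi-summit regions lay away from coding 5′ ends, so that the promoter members were 41.9% of the 1142 in the list. Of these, 45 had their midpoint at the 5′ end of a non-coding gene, 310 lay inside a coding gene and 308 between coding genes, and 534 were over 10 kb from any coding 5′ end. Their median width was 812 bp (range 494 to 1659) and their median fold 7.68, against 856 bp and 8.89 for the promoter members. Among the regions of 9 summits away from coding 5′ ends, that with the highest fold lay 17.98 kb from Errfi1, a feedback inhibitor of the EGF receptor, with 9 summits over 1659 bp and a fold of 9.23. Among those of 8 summits, the highest folds lay 51.4 kb from the 5′ end of Cdkn2aipnl (1298 bp, fold 8.93) and 65.8 kb from that of Fancc (1023 bp, fold 8.81). The nearest gene is named for position only.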
